A study of Mus musculus with 9 samples.

Results

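Pancreatic islets must move large amounts of hormone precursor through the secretory pathway, and 60 genes for the first steps of that route were followed here in RNA from mouse islets. The list holds genes of known function, those that bring nascent proteins to and across the membrane of the endoplasmic reticulum (ER), cut their signal peptides, attach N-linked glycans, and move cargo between the ER and the Golgi in coated vesicles. Of the 60 symbols, 59 stood among the 23329 genes of the deposited count table, and all 59 passed the filter on low counts that left 12402 genes for testing. The symbol Copg1 was not matched, and the gene under its older symbol, Copg, is given separately and not counted. Polyadenylated RNA was sequenced from islets of male mice in 9 libraries. There were 5 libraries of genotype Pdx1A4, called mutants here as in their titles, and 4 of genotype Pdx1+/-, titled as controls. The labels do not explain Pdx1A4, so the alleles that the groups share are not known, and no age, treatment or pooling is given. Pdx1 itself, a transcription factor needed for pancreas formation and beta cell function, had 15.6, 4.18, 7.13, 17.8 and 19.9 CPM in mutants 1 to 5, against 36, 32, 23.8 and 26.2 CPM in controls 1 to 4 (log2 fold change -1.18, standard error 0.40, edgeR adjusted p = 0.0461). All mutants lay below all controls for Pdx1. The call was lost when any of 6 of the 9 libraries was left out.

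Most secreted proteins start with a signal peptide that the signal recognition particle (SRP) binds as it leaves the ribosome, and the particle docks at a receptor on the ER. The chain then passes through the Sec61 channel, helped by the translocon-associated protein complex (TRAP). Signal peptidase removes the signal peptide and the oligosaccharyltransferase (OST) transfers a preassembled glycan to asparagines of the chain. Folded cargo leaves the ER in vesicles with a COPII coat, and COPI-coated vesicles bring receptors and escaped ER residents back from the Golgi. Beta cells use this route for proinsulin, and the acinar cells that surround islets use it for digestive enzymes.

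The libraries held 7186462 to 9163253 counts in mutants and 6092010 to 7375376 counts in controls. Levels are given as CPM, counts divided by library size after scaling by the trimmed mean of M-values (TMM), and fold changes, mutant over control, come from edgeR's quasi-likelihood test with Benjamini-Hochberg adjustment over all 12402 genes and a threshold of 0.05. Islet hormone genes took 0.0691 to 7.99% of counts in mutants and 16.9 to 21.0% in controls. Of these 7 hormone genes, edgeR called 0, with 1 lower at an unadjusted p under 0.05, whereas DESeq2 called 6 lower and limma-voom 1. Without mutant 2 edgeR called 6 lower. Genes of 28 acinar markers took 10.8 to 22.4% in mutants and 2.16 to 3.37% in controls, and 26 of the 28 rose. None of the 28 was at 0 in all libraries, and their summed level was 103717 to 276680 CPM in mutants and 16940 to 29106 CPM in controls. Of 12 ductal markers 6 rose and 1 fell, with a summed level of 17772 to 30290 CPM in mutants and 4713 to 13378 CPM in controls. Plasma and B cell markers, of a cell type also rich in ER, had 0 of 3 tested genes past the threshold (edgeR, 1 higher at an unadjusted p under 0.05, and 0 by DESeq2 or limma-voom), with Tnfrsf17 at 0 in all libraries and sums of 4.68 to 350 CPM in mutants and 9.71 to 74.5 CPM in controls. Of 8 stellate and fibroblast markers 2 fell, with sums of 2.97 to 171 CPM in mutants and 56.3 to 117 CPM in controls. For 6 endothelial, 8 macrophage and 2 Schwann cell markers edgeR called 0, with 1, 3 and 0 at an unadjusted p under 0.05. DESeq2 called 1, 1 and 0 and limma-voom 2, 3 and 0, and the genes these tools called were lower. Of the 3 macrophage markers at an unadjusted p under 0.05 by edgeR, 1 was higher and 2 were lower. The macrophage markers had sums of 298 to 559 CPM in mutants and 75.5 to 458 CPM in controls, so the ranges overlapped. The endothelial and Schwann cell sums lay lower in mutants, also with overlapping ranges. In bulk RNA, fewer cells of a type and less RNA per cell cannot be told apart. Nothing states that each library is a separate animal, and p-values therefore reflect only how far these libraries scatter, which could be technical.

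In mutant islets 18 of the 59 genes fell and 1 rose, while 40 did not pass the test. Over all genes tested, 11.8% were called lower and 20.6% higher, so that 63.6% of the calls were higher. With the relative log expression (RLE) scaling 51.8% of all calls were higher, and 27 of the 59 genes fell and 1 rose. Over all genes RLE scaling gave 16.2% lower and 17.4% higher. The median log2 fold change of the 59 was -0.36, against 0.04 over all genes tested, and 51 of the 59 had a negative value. Together the 59 genes took 1.21 ± 0.27% of counts in mutant libraries (SD, n = 5, range 0.916 to 1.60%) and 2.16 ± 0.167% in control libraries (n = 4, range 1.97 to 2.37%). The percentages are of raw counts without TMM scaling, and acinar markers took a larger part of those counts in mutants. They are therefore not on the scale of the fold changes. All mutant libraries lay below all control libraries for 20 genes, and in no gene did all mutants lie above; over all genes tested these shares were 14.7% below and 18.5% above. The 30 genes of translocation and glycosylation held 12 falls and the 1 rise. The 29 genes of coats, cargo receptors and retrieval held 6 falls.

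The falls were spread unevenly over the route. The OST had 5 of its 7 genes lower, TRAP 2 of 4, signal peptidase 2 of 5, the COPII coat 4 of 11, the translocon channel 2 of 6, the p24 proteins and cargo receptors 2 of 7 and SRP 1 of 8. The 7 COPI coat genes with Arf1 and the 4 KDEL receptor and Golgi matrix genes had 0 falls by edgeR. At an unadjusted p under 0.05, 1 gene of each of these 2 groups was lower, DESeq2 called 2 and 1 of them lower, and limma-voom 2 and 0. The differences in counts between groups of genes were not tested.

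**Figure D1:**
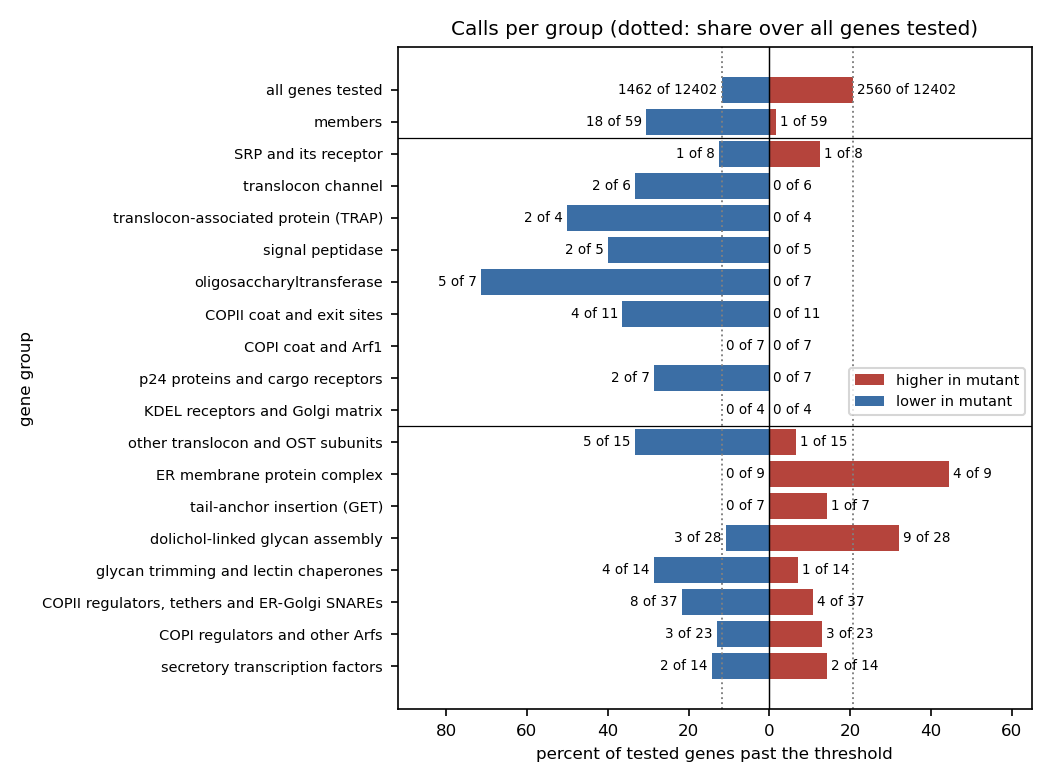
Share of tested genes called lower (blue, drawn to the left) and higher (red, drawn to the right) in mutant islets, for all genes, the 59 genes, their 9 role groups and 8 related lists, with the count beside each bar. Dotted lines mark the shares over all genes tested, 11.8% lower and 20.6% higher; the OST bar reaches furthest to the left, with 5 of 7 genes.

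The fall of the 18 genes was largest in 1 library and smallest in another. Mutant 2 was the lowest mutant in 17 of the 18 and mutant 3 in the remaining gene, Sec16a, while mutant 1 was the highest mutant in 14 and mutant 4 in 4. Mutant 2 and mutant 3 also had the lowest shares of hormone counts and the highest shares of acinar counts. Without both, 7 of the 59 were called lower and 0 higher, with 20 lower and 0 higher at an unadjusted p under 0.05 (edgeR). Over all genes tested in that fit 9.78% were called lower and 10.8% higher, so the 7 of 59 lay near the share of falls. Without control 1, 9 of the 59 were called lower, beside 5.53% over all genes tested. Across the 9 fits that leave out 1 library, 8 genes passed in every fit: Sec61b, Spcs2, Spcs3, Dad1, Ostc, Sec24d, Tmed3 and Lman1.

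A score of the 28 acinar markers, their mean log2 CPM, was 10.4 ± 0.492 in mutants and 7.69 ± 0.234 in controls (SD, n = 5 and 4), and group explained 93.4% of its variance over libraries. The same score of 29 insulin granule exocytosis genes was 4.99 ± 1.68 in mutants and 7.28 ± 0.189 in controls, with 50.5% explained. Of these 29 genes 9 fell by edgeR, 15 without mutant 1, 25 without mutant 2, 25 by DESeq2 and 22 by limma-voom. With the acinar score as a covariate, 0 of the 59 genes were called in either direction by edgeR, and 0 had an unadjusted p under 0.05. Over all 12402 genes the acinar covariate also left 0 called, with 444 at an unadjusted p under 0.05. The exocytosis score as a covariate left 0 of the 59 called, with 4 at an unadjusted p under 0.05. Over all genes it left 451 higher and 54 lower, with 2728 at an unadjusted p under 0.05. DESeq2 and limma-voom were not run with these covariates. The part of tissue makeup in the falls was not tested, and with the acinar score it cannot be told apart from genotype.

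Control 2 stood apart from the other controls for many of these genes. It was above the other 3 controls in 28 of the 59 genes (47.5%, against 32.9% of all genes tested) and exceeded each of them by over 1.5 times in 16 (27.1%, against 12%). Ssr1, Spcs2, Sec11c, Tmed9 and Kdelr2 were among these. In 7 of the 59 genes, leaving out control 2 moved the log2 fold change by over 0.3, and their values without it are given beside the result. The sign turned without it in 2 genes, Sec62 and Copz1, neither of them called. Without control 2, 23 of the 59 genes were called lower, beside 10.3% over all genes tested.

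**Figure D2:**
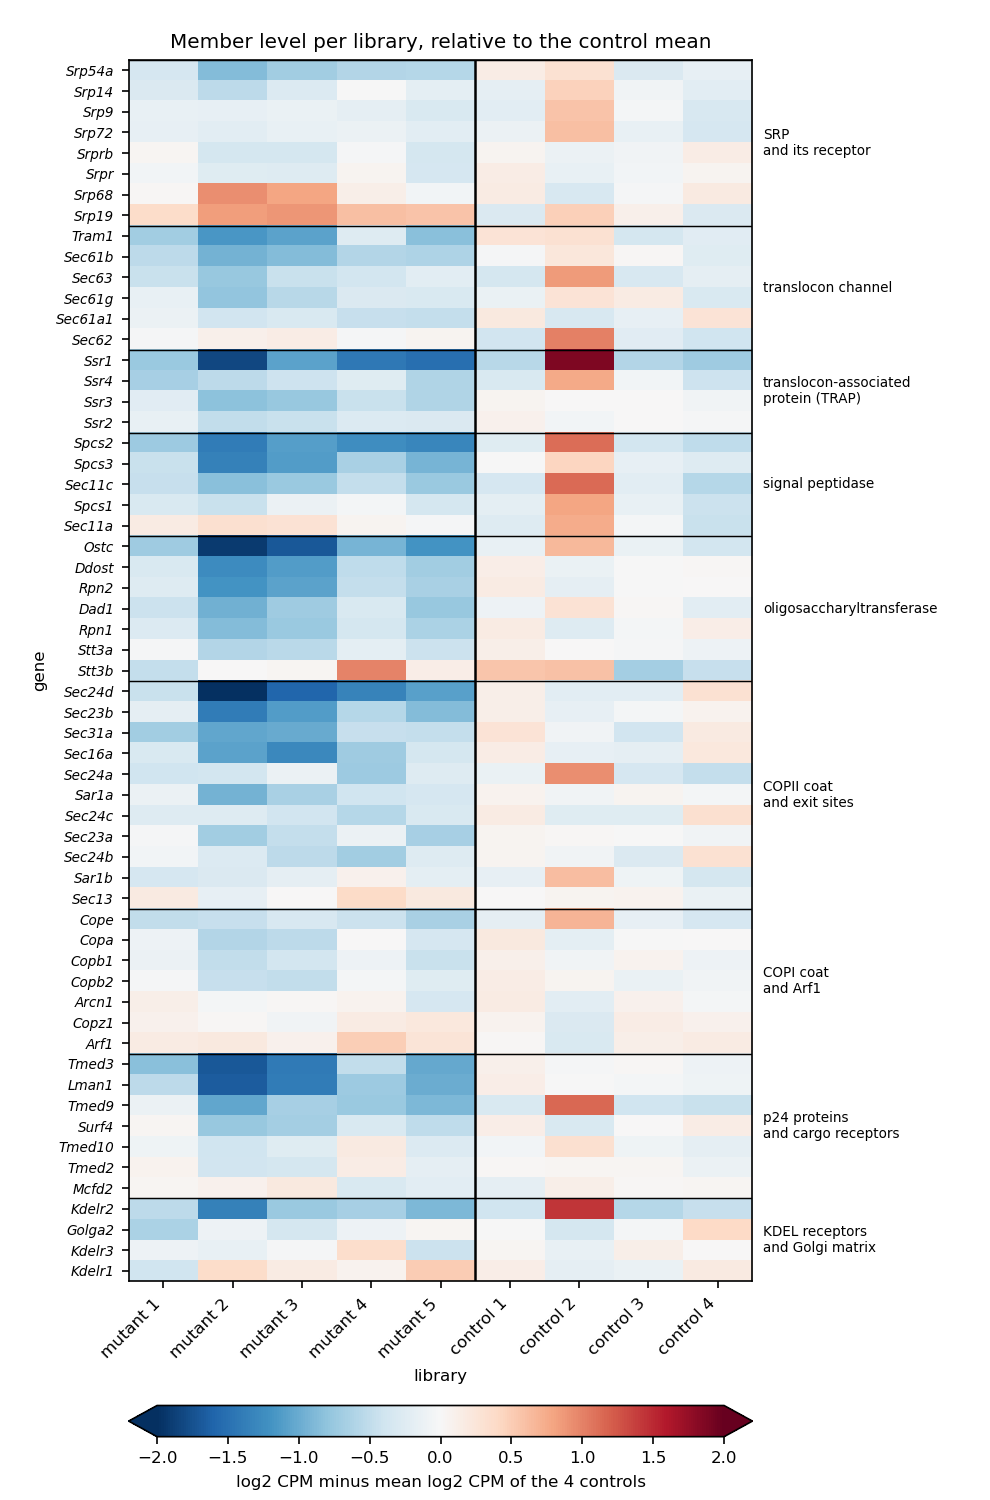
Heat map of the 59 genes (rows, by role) in 5 mutant and 4 control libraries (columns), coloured by log2 CPM minus the mean log2 CPM of the controls, with colours capped at 2 in both directions. Blue runs through the mutant columns of most OST and COPII genes, with Stt3b and Sec13 among the exceptions. Single red cells stand in the column of control 2, the deepest in Ssr1 at 4701 CPM.

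Among the genes of SRP and its receptor 1 fell and 1 rose, and the median log2 fold change was -0.21. Srp54a encodes the GTPase subunit that binds the signal peptide. It had 59.2, 41.2, 46.1, 49.9 and 50.7 CPM in mutants 1 to 5, against 83.3, 92.5, 61.5 and 66.8 CPM in controls 1 to 4. The groups did not overlap, and Srp54a fell by 0.62 on the log2 scale (standard error 0.16, edgeR adjusted p = 0.0187). Mouse has 3 near-identical Srp54 genes next to each other on chromosome 12, among which the authors' counting could split reads, so the value of each is uncertain. All 3 were lower: Srp54b had 178 ± 20.9 CPM in mutants and 269.6 ± 45.1 CPM in controls (edgeR adjusted p = 0.0155) and Srp54c had 252 ± 31.9 CPM in mutants and 355 ± 74.6 CPM in controls (edgeR adjusted p = 0.0471). The call of Srp54a was lost without control 1.

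Srp19, whose protein helps assemble SRP54 onto the particle's RNA, was the 1 gene of the 59 that rose. It had 70.4, 96.8, 100.3, 82.5 and 81.2 CPM in mutants 1 to 5, against 44.6, 75.5, 58.7 and 44.6 CPM in controls 1 to 4. Mutant 1 lay below control 2, so the groups overlapped (log2 fold change 0.63, standard error 0.19, edgeR adjusted p = 0.0327). The call was lost when any of 6 of the 9 libraries was left out. Srp68, a subunit that binds the particle's RNA, had 113 to 224 CPM in mutants and 94.4 to 133 CPM in controls (log2 fold change 0.41, standard error 0.24, edgeR adjusted p = 0.203), with mutants 2 and 3 highest. Srp14, of the part that slows elongation, had 81.1 to 116 CPM in mutants and 102 to 161 CPM in controls (log2 fold change -0.28, standard error 0.17, edgeR adjusted p = 0.232), and its partner Srp9 169 to 191 CPM in mutants and 167 to 308 CPM in controls (log2 fold change -0.23, standard error 0.18, edgeR adjusted p = 0.353). Srp72 and the receptor genes Srpr and Srprb had log2 fold changes of -0.22, -0.16 and -0.20, none past the threshold.

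In the translocon channel group 2 of 6 genes fell, with a median log2 fold change of -0.47. Sec61b encodes the small beta subunit of the Sec61 channel. It had 137, 102, 108, 132 and 129 CPM in mutants 1 to 5, against 196, 230.5, 202 and 168 CPM in controls 1 to 4. Every mutant was below every control, and the fall was 0.71 on the log2 scale (standard error 0.14, edgeR adjusted p = 0.0072), the lowest adjusted p of the 59. Tram1, a membrane protein that contacts nascent chains beside the channel, had 424, 307, 329, 576 and 385 CPM in mutants 1 to 5, against 829, 852, 542 and 588 CPM in controls 1 to 4. Mutant 4 lay above control 3 but below the other controls, and the call (log2 fold change -0.80, standard error 0.23, edgeR adjusted p = 0.0256) was lost without mutant 5 or control 1. Sec61a1, the pore-forming subunit, had 418, 348, 363, 329 and 324 CPM in mutants 1 to 5, against 517, 363, 403 and 547 CPM in controls 1 to 4, and control 2 fell among the mutants (log2 fold change -0.36, standard error 0.16, edgeR adjusted p = 0.112). Sec61g, the gamma subunit, had 95.8 to 149 CPM in mutants and 134 to 199 CPM in controls (log2 fold change -0.42, standard error 0.17, edgeR adjusted p = 0.0881). Sec62, which with Sec63 helps chains that enter after translation, had 228, 251, 257, 230.1 and 243 CPM in mutants 1 to 5, against 179, 469, 200.1 and 177 CPM in controls 1 to 4, and Sec63 had 39, 31.4, 39, 40.8 and 45.6 CPM in mutants 1 to 5, against 41.6, 95, 42.4 and 46.8 CPM in controls 1 to 4. Control 2 was the highest library in both, and neither passed (log2 fold changes -0.08 and -0.53). Without control 2 these became 0.30 and -0.25, so the sign of Sec62 turned. Without control 1 or without mutants 2 and 3, 1 of the 6 was called lower.

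The 4 TRAP genes were all lower in value, with a median of -0.56. Ssr3, the gamma subunit, had 439.8, 293, 304, 381 and 339 CPM in mutants 1 to 5, against 537, 516, 518 and 492 CPM in controls 1 to 4. The lowest control exceeded the highest mutant (log2 fold change -0.55, standard error 0.15, edgeR adjusted p = 0.0223), and this call was lost without control 1. Ssr1 encodes the alpha subunit, which has been linked to preproinsulin entry in beta cells. It had 767, 366, 613, 477 and 451 CPM in mutants 1 to 5, against 874, 4701, 856 and 784 CPM in controls 1 to 4. Control 2 carried more than 5 times the level of any other control, and the fitted log2 fold change of -1.75 (standard error 0.55, edgeR adjusted p = 0.036) became -0.74 without it (edgeR adjusted p = 0.0476). The call was lost when mutant 2, 3, 4 or 5 was left out, and DESeq2 gave no adjusted p for Ssr1. Ssr2, the beta subunit, had 235, 185, 190.2, 214 and 212 CPM in mutants 1 to 5, against 274, 249, 260.3 and 254 CPM in controls 1 to 4, again with no overlap, but did not pass (log2 fold change -0.32, standard error 0.12, edgeR adjusted p = 0.0632), and without control 2 its adjusted p was 0.0295 (edgeR). Ssr4, the delta subunit, had 125 to 167 CPM in mutants and 149 to 335 CPM in controls (log2 fold change -0.56, standard error 0.23, edgeR adjusted p = 0.0898). Of the 4 genes, 0 were called by edgeR without mutants 2 and 3, with 3 at an unadjusted p under 0.05.

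Signal peptidase had 2 of 5 genes lower, and both passed in every fit that left out 1 library, but neither with the replicate block. The median log2 fold change of the 5 genes was -0.82, and -0.37 without control 2. Spcs3 encodes a subunit needed for cleavage in yeast. It had 443, 236, 277, 384 and 317 CPM in mutants 1 to 5, against 602, 813, 535 and 503 CPM in controls 1 to 4. The groups did not overlap (log2 fold change -0.89, standard error 0.22, edgeR adjusted p = 0.0153). Spcs2, another noncatalytic subunit, had 569, 353, 437, 396 and 380.1 CPM in mutants 1 to 5, against 796, 2021, 727 and 657 CPM in controls 1 to 4. It fell by 1.30 on the log2 scale (standard error 0.34, edgeR adjusted p = 0.0179), and by 0.86 without control 2 (edgeR adjusted p = 0.0144). Spcs1 had 162 to 214 CPM in mutants and 164 to 381 CPM in controls (log2 fold change -0.33, standard error 0.24, edgeR adjusted p = 0.304).

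The catalytic subunit of signal peptidase comes in 2 forms, and they differed in value. Sec11c had 195, 151, 162, 194 and 162 CPM in mutants 1 to 5, against 213, 588, 232 and 182 CPM in controls 1 to 4, and its log2 fold change of -0.82 (edgeR adjusted p = 0.0755) became -0.37 without control 2 (edgeR adjusted p = 0.0733). Sec11a had 176, 195, 192, 163 and 155 CPM in mutants 1 to 5, against 131, 262, 152 and 115 CPM in controls 1 to 4 (log2 fold change 0.09, standard error 0.23, edgeR adjusted p = 0.771). Within a library the ratio of Sec11c to Sec11a counts does not depend on scaling. Its log2 value was 0.14, -0.37, -0.25, 0.25 and 0.07 in mutants 1 to 5, against 0.70, 1.17, 0.61 and 0.65 in controls 1 to 4. All mutants lay below all controls, and the difference of -0.81 had an exact two-sided permutation p of 0.00794, the smallest that 5 against 4 libraries can give, and 0.0635 after Benjamini-Hochberg adjustment over 8 paralog pairs, which does not pass.

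The OST had 5 of 7 genes lower and a median log2 fold change of -0.63. Ostc encodes a subunit of the form of OST that works at the translocon. It had 168, 73.1, 85.4, 145 and 121 CPM in mutants 1 to 5, against 248, 433, 252 and 214 CPM in controls 1 to 4. The highest mutant stood below the lowest control, and the mean was 118 ± 39.6 CPM in mutants and 287 ± 99 CPM in controls (log2 fold change -1.28, standard error 0.29, edgeR adjusted p = 0.0109). Dad1, a small core subunit named for a defender against cell death, had 232, 161, 191, 252 and 186 CPM in mutants 1 to 5, against 292, 383, 318 and 269 CPM in controls 1 to 4 (log2 fold change -0.63, standard error 0.17, edgeR adjusted p = 0.0219). Both passed in every fit that left out 1 library, but neither with the replicate block (edgeR adjusted p = 0.0637 for Ostc and 0.115 for Dad1).

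Ddost encodes a core subunit with a single membrane span. It had 530.1, 274, 302, 458 and 403 CPM in mutants 1 to 5, against 715, 594, 652 and 665 CPM in controls 1 to 4. Mutants 2 and 3 were lowest and the groups did not overlap (log2 fold change -0.74, standard error 0.21, edgeR adjusted p = 0.024). Rpn1, or ribophorin I, which presents some substrates to the catalytic subunit, had 361, 238, 259, 340.3 and 280.4 CPM in mutants 1 to 5, against 487, 362, 425 and 476 CPM in controls 1 to 4 (log2 fold change -0.57, standard error 0.17, edgeR adjusted p = 0.03). Rpn2, or ribophorin II, had 472, 247, 267, 406 and 359 CPM in mutants 1 to 5, against 633, 498, 562 and 569 CPM in controls 1 to 4 (log2 fold change -0.69, standard error 0.21, edgeR adjusted p = 0.0304). For all of these genes the groups were apart, and the calls of Rpn1 and Rpn2 were each lost without mutant 3, mutant 5, control 1, control 3 or control 4, and that of Ddost without control 1 or 4. Leaving out control 1 left 2 of the 7 OST genes called lower, and leaving out mutants 2 and 3 left 1.

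The catalytic subunits of OST did not pass by edgeR. Stt3a was called lower by DESeq2 (adjusted p = 0.0224) and limma-voom (adjusted p = 0.035), and Stt3b by neither. Stt3a, which acts during translocation, had 597, 406, 420.0, 530.2 and 449 CPM in mutants 1 to 5, against 660.4, 610.4, 598 and 564 CPM in controls 1 to 4, with mutant 1 inside the range of the controls (log2 fold change -0.34, standard error 0.16, edgeR adjusted p = 0.117). Stt3b, which can glycosylate sites that were skipped, had 33.7, 46.9, 47.9, 93 and 51.4 CPM in mutants 1 to 5, against 68.6, 69.8, 29.3 and 34 CPM in controls 1 to 4 (log2 fold change 0.12, standard error 0.35, edgeR adjusted p = 0.816), with both groups spread widely. The log2 ratio of Stt3a to Stt3b counts differed by -0.49 between mutants and controls, with an exact permutation p of 0.183, or 0.292 adjusted over the 8 pairs.

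**Figure D3:**
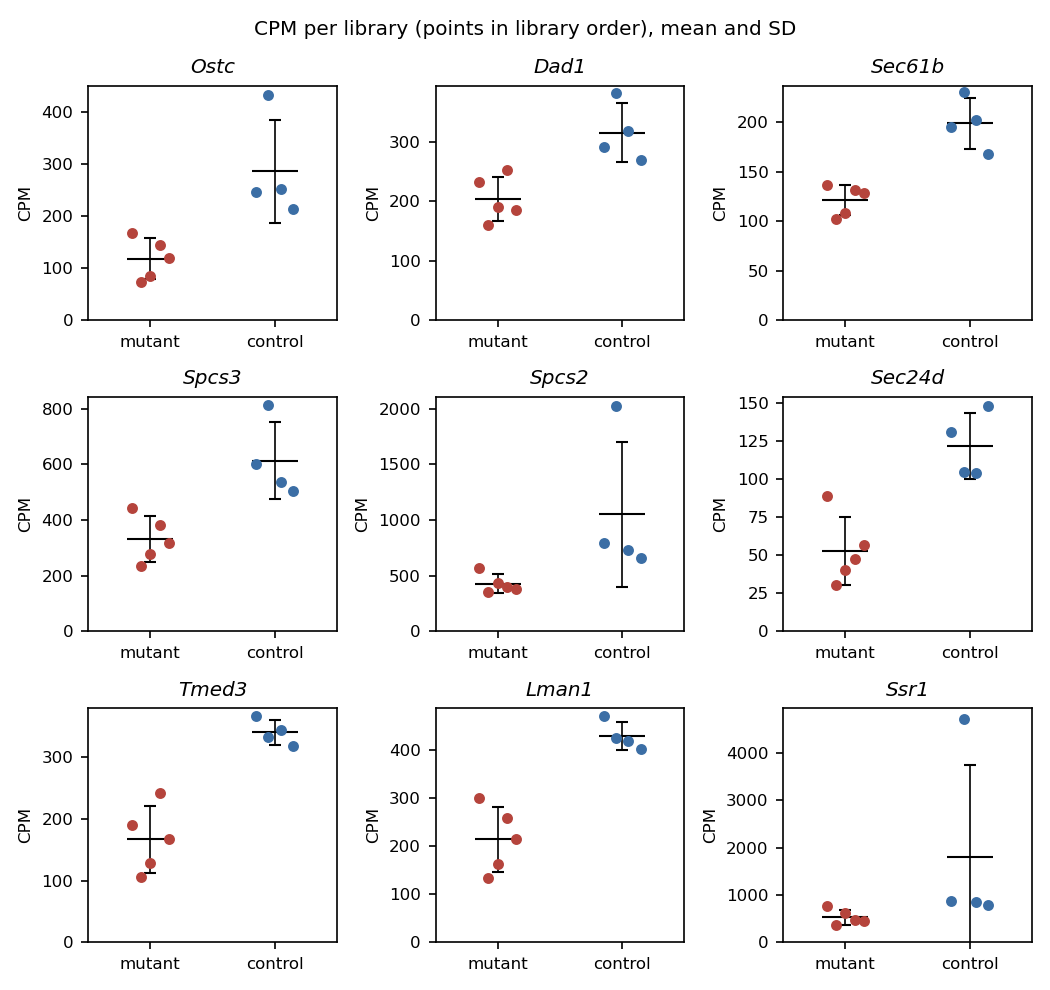
CPM in each library for 9 genes, mutants (red) left of controls (blue), with the mean and SD as bars; the lower bar of Ssr1 in controls is cut at 0. In each of the 9 panels all mutant points lie below all control points, and in Ssr1 and Spcs2 control 2 stands far above the other controls.

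In the COPII coat 4 of 11 genes fell and the median log2 fold change was -0.47. Sec24d encodes 1 of 4 cargo-binding Sec24 proteins of the inner coat. It had 88.8, 30.3, 40.2, 47.7 and 56.9 CPM in mutants 1 to 5, against 131, 104, 104 and 148 CPM in controls 1 to 4. Mutant 1 was nearest to the controls and mutant 2 farthest, without overlap, and the fall was 1.21 on the log2 scale (standard error 0.28, edgeR adjusted p = 0.0123). The other Sec24 genes did not pass by edgeR, while Sec24c was called lower by DESeq2 (adjusted p = 0.0321) and limma-voom (adjusted p = 0.0407). Sec24c had 62.2, 61.9, 57.2, 50.3 and 60.2 CPM in mutants 1 to 5, against 83.5, 62.8, 63 and 92.5 CPM in controls 1 to 4, with all mutants just below all controls (log2 fold change -0.37, standard error 0.15, edgeR adjusted p = 0.0868). Sec24a and Sec24b had log2 fold changes of -0.47 and -0.35 (edgeR adjusted p = 0.215 and 0.14), and that of Sec24a became -0.14 without control 2. The log2 ratio of Sec24d to Sec24c counts was 0.51, -1.03, -0.51, -0.08 and -0.08 in mutants 1 to 5, against 0.65, 0.73, 0.72 and 0.68 in controls 1 to 4. All mutants were below all controls, the difference was -0.93, and the exact two-sided permutation p was 0.0159, or 0.0635 adjusted over the 8 pairs. For Sec24a to Sec24b the difference was -0.01 (exact permutation p = 0.976).

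Sec23 proteins pair with Sec24 and switch off the Sar1 GTPase. Sec23b, mutated in a human anaemia and needed in the mouse pancreas, had 313, 133, 163, 237 and 194 CPM in mutants 1 to 5, against 384, 314, 346 and 373 CPM in controls 1 to 4 (log2 fold change -0.77, standard error 0.23, edgeR adjusted p = 0.0317). The groups did not overlap, though mutant 1 nearly reached control 2. The call was lost without mutant 3, mutant 5, control 1, control 3 or control 4. Sec23a had 51.9, 32.6, 38.1, 48.9 and 33.3 CPM in mutants 1 to 5, against 55, 53.4, 52.5 and 50.2 CPM in controls 1 to 4 (log2 fold change -0.36, standard error 0.17, edgeR adjusted p = 0.113). The log2 ratio of Sec23b to Sec23a differed by -0.44, with an exact permutation p of 0.0397, or 0.106 adjusted over the 8 pairs.

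Sec31a forms the outer cage with Sec13. It had 82.3, 65, 66.1, 96.7 and 95.9 CPM in mutants 1 to 5, against 161, 127, 103 and 151 CPM in controls 1 to 4, without overlap (log2 fold change -0.74, standard error 0.19, edgeR adjusted p = 0.0156). Sec13, which is also part of nuclear pores and of a nutrient-sensing complex, had 138 to 202 CPM in mutants and 141 to 162 CPM in controls (log2 fold change 0.13, standard error 0.14, edgeR adjusted p = 0.483). Sec16a marks the ER exit sites where the coat forms, and had 31.8, 18.9, 16.2, 24.1 and 30.9 CPM in mutants 1 to 5, against 43.6, 35.1, 34.7 and 45.7 CPM in controls 1 to 4. The controls were all above the mutants (log2 fold change -0.70, standard error 0.22, edgeR adjusted p = 0.0337). The call of Sec31a was lost without control 1, and that of Sec16a without mutant 3, control 1 or control 4. Sar1a, the GTPase that starts coat assembly, had 315, 178, 217, 259 and 270.0 CPM in mutants 1 to 5, against 357, 326, 355 and 331 CPM in controls 1 to 4. Its groups did not overlap, but the edgeR test was not passed (log2 fold change -0.47, standard error 0.17, edgeR adjusted p = 0.0596). Sar1a was called lower by DESeq2 (adjusted p = 0.0103) and limma-voom (adjusted p = 0.0178). Sar1b, whose human form is mutated in a disorder of lipoprotein secretion, had 119 to 159 CPM in mutants and 118 to 230.3 CPM in controls (log2 fold change -0.23, standard error 0.20, edgeR adjusted p = 0.395), and the log2 ratio of Sar1b to Sar1a differed by 0.31 (exact permutation p = 0.294, adjusted 0.392). Without control 1, 1 of the 11 COPII genes was called lower, and without mutants 2 and 3 also 1, while 6 were called without control 2 and without mutant 1. DESeq2 and limma-voom each called 7 of the 11 lower, with Sec23a, Sec24c and Sar1a among them.

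**Figure D4:**
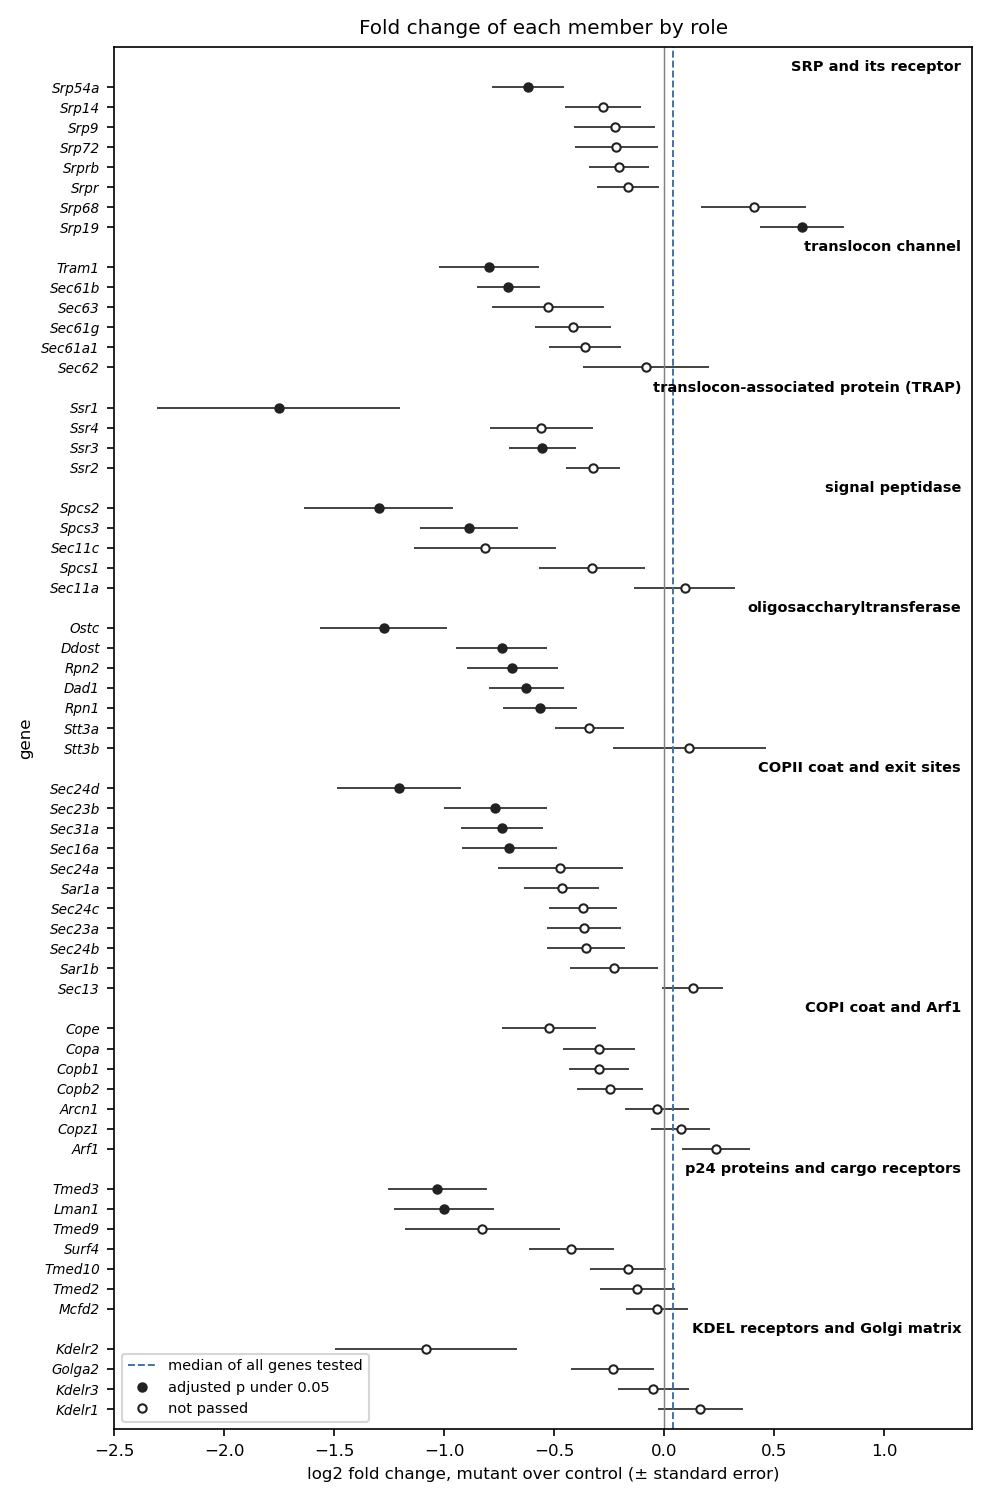
Log2 fold change of each gene, mutant over control, with its standard error, grouped by role; filled points passed the adjusted p threshold of 0.05 and open points did not. Filled points lie left of the dashed median of all genes (0.04) except Srp19, and the COPI and KDEL receptor groups have open points alone.

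**Figure D5:**
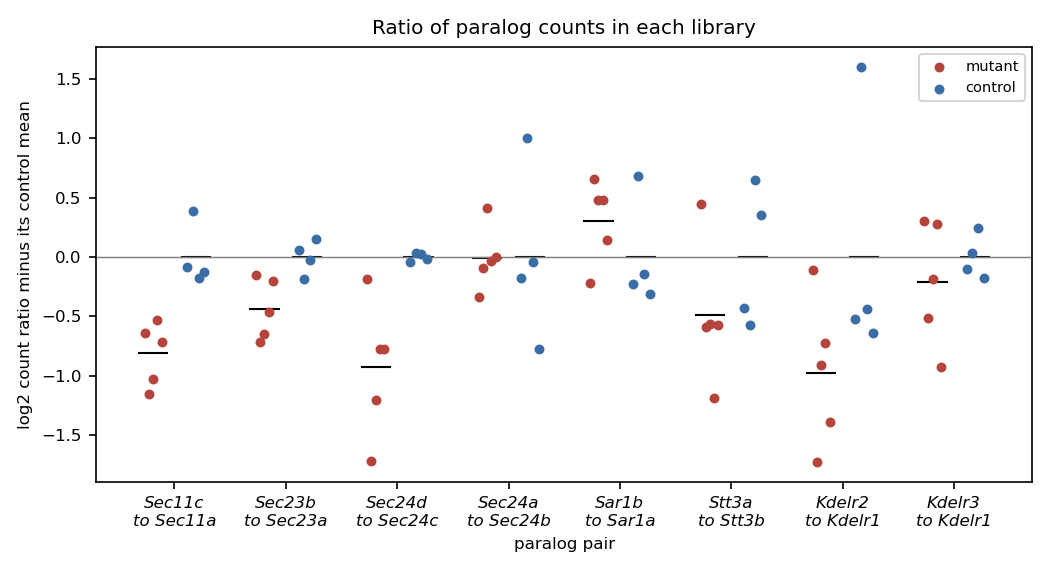
Log2 ratio of the counts of 2 paralogs in each library, minus the mean of the controls, for 8 pairs, mutants (red) left of controls (blue). The mutants lie wholly below the controls for Sec11c to Sec11a and Sec24d to Sec24c, and overlap them in the other 6 pairs.

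COPI genes, whose coat forms on the Golgi after Arf1 is activated, had a median log2 fold change of -0.25, and 5 of the 7 values were negative. Cope had 317, 324, 355, 329 and 283 CPM in mutants 1 to 5, against 391, 713, 397 and 351 CPM in controls 1 to 4. Control 2 was far above the other controls (log2 fold change -0.53, standard error 0.21, edgeR adjusted p = 0.0816), and mutant 3 lay above control 4. Copb1 had 217 to 285 CPM in mutants and 284 to 329 CPM in controls (log2 fold change -0.30, standard error 0.14, edgeR adjusted p = 0.115), Copa 255 to 384 CPM in mutants and 333 to 437 CPM in controls (log2 fold change -0.30, standard error 0.16, edgeR adjusted p = 0.182) and Copb2 226 to 314 CPM in mutants and 291 to 354 CPM in controls (log2 fold change -0.25, standard error 0.15, edgeR adjusted p = 0.221). These encode coat subunits, as do Copz1 and Arcn1, whose log2 fold changes were 0.07 and -0.03 (-0.10 for Copz1 without control 2). Arf1, the GTPase itself, had 474, 484, 451, 599 and 508 CPM in mutants 1 to 5, against 430.3, 343, 459 and 477 CPM in controls 1 to 4 (log2 fold change 0.24, standard error 0.15, edgeR adjusted p = 0.251). The gene under the older symbol Copg, for the gamma subunit, had 303, 219, 239.8, 302 and 262 CPM in mutants 1 to 5, against 399, 319, 346 and 368 CPM in controls 1 to 4. There the groups did not overlap and the gene fell (log2 fold change -0.43, standard error 0.15, edgeR adjusted p = 0.0451), a call that was lost when any of 6 of the 9 libraries was left out.

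Of the p24 proteins and cargo receptors, which select cargo for vesicles, 2 of 7 fell, and all 7 values were negative. Tmed3, of the p24 family, had 190.3, 106, 128, 243 and 168 CPM in mutants 1 to 5, against 367, 333, 345 and 319 CPM in controls 1 to 4. Controls lay close together and all above the mutants (log2 fold change -1.03, standard error 0.23, edgeR adjusted p = 0.00954). Lman1 is a lectin that carries glycoproteins, among them coagulation factors in human, out of the ER. It had 300.2, 135, 164, 259 and 216 CPM in mutants 1 to 5, against 472, 425, 419.5 and 404 CPM in controls 1 to 4, without overlap (log2 fold change -1.0, standard error 0.23, edgeR adjusted p = 0.0109). Its partner Mcfd2 had 99.5 to 141 CPM in mutants and 109 to 133 CPM in controls (log2 fold change -0.03, standard error 0.14, edgeR adjusted p = 0.875). The calls of Tmed3 and Lman1 held in every fit that left out 1 library.

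Other p24 genes and Surf4 did not pass by edgeR. DESeq2 called Tmed9 and Surf4 lower (adjusted p = 0.0421 and 0.0428), and of these limma-voom called only Surf4 (adjusted p = 0.0189). Tmed9 had 182, 96.1, 124, 118 and 106 CPM in mutants 1 to 5, against 159.8, 437, 149.7 and 145 CPM in controls 1 to 4, and its log2 fold change of -0.83 (edgeR adjusted p = 0.0935) became -0.36 without control 2 (edgeR adjusted p = 0.204). Tmed2 and Tmed10, the partners that most p24 complexes hold, had log2 fold changes of -0.12 and -0.16 (edgeR adjusted p = 0.595 and 0.479). Surf4, a receptor for soluble cargo, had 323 to 564 CPM in mutants and 447 to 612 CPM in controls (log2 fold change -0.42, standard error 0.19, edgeR adjusted p = 0.115).

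KDEL receptors return escaped ER chaperones from the Golgi. Kdelr2 had 190.2, 106, 162, 172 and 146 CPM in mutants 1 to 5, against 207, 729, 183 and 198 CPM in controls 1 to 4. Control 2 held more than 3 times any other control, and the log2 fold change of -1.08 (edgeR adjusted p = 0.0676) became -0.43 without it (edgeR adjusted p = 0.106). Kdelr1 had 17.1 to 32 CPM in mutants and 19.9 to 25.6 CPM in controls (log2 fold change 0.16, standard error 0.19, edgeR adjusted p = 0.525) and Kdelr3 29 to 49.6 CPM in mutants and 35.1 to 42.3 CPM in controls (log2 fold change -0.05). The log2 ratios of Kdelr2 and Kdelr3 to Kdelr1 differed by -0.98 and -0.21 between mutants and controls (exact permutation p = 0.119 and 0.484, adjusted 0.238 and 0.553). Golga2, a matrix protein of the cis-Golgi, had 16.6 to 26.5 CPM in mutants and 20.2 to 33.6 CPM in controls (log2 fold change -0.23, standard error 0.19, edgeR adjusted p = 0.354).

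Factors of the unfolded protein response act on many ER genes through short promoter elements, so the promoters of these genes were read for them. Windows from RefSeq (build GRCm38.p6), 250 bases before to 50 after a start site, matched 47 of the 59 genes. The element TGACGTGG, a UPR element searched on both strands, was in 6 of the 47 genes (12.8%) and in 193 of 27025 genes with a window (0.714%). The 6 were Arf1, Copb1, Copb2, Kdelr3, Sec23a and Sec24d, of which Sec24d fell and the other 5 did not pass. The stretches of 56 bases around it are shown to let the sites be compared, with the element in capitals and each read 5′ to 3′ on the strand that carries it.
Sec24d: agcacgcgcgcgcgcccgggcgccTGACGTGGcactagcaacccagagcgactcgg
Sec23a: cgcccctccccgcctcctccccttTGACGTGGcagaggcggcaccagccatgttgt
Copb1: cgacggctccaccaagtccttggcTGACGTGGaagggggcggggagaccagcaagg
Copb2: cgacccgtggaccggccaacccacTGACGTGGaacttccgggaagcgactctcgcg
Kdelr3: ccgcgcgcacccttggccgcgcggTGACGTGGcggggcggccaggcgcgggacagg
Arf1: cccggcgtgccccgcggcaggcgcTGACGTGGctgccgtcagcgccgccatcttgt
The Sec24d stretch is chr3:123267446-123267501 on the plus strand. That of Sec23a is chr12:59011980-59012035 on the minus strand, that of Copb1 chr7:114254677-114254732 on the plus strand, that of Copb2 chr9:98563700-98563755 on the minus strand, that of Kdelr3 chr15:79516354-79516409 on the minus strand and that of Arf1 chr11:59228215-59228270 on the minus strand. In Sec24d, Sec23a and Arf1 the element reads along the gene's own strand, and in the other 3 along the opposite strand. From a start site, its first base was at -26 in Sec24d, -28 in Copb1, -7 in Copb2, -30 in Kdelr3 and 7 in Sec23a. In Arf1 it was at 22 from the start site at the outer edge of the annotated gene, and at -84 from another site inside it. The Sec24d window lies wholly inside the annotated gene, which begins at chr3:123264801. The longer ER stress response element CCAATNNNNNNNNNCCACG and its second form ATTGGNCCACG, which share their last 5 letters, were in 0 of the 47 genes, and in 0.137% and 0.0444% of all genes with a window. The shared letters CCACG, which TGACGTGG also holds on its other strand, were in 33 of the 47 genes (70.2%). Over all genes with a window their share was 35.5%, so the windows of the 47 differed in shorter letters too. Whether the UPR element was more frequent beyond this was not tested. Among the 47, 14 genes were called lower. These letters describe the windows and do not show binding, and a window without them says nothing of the factor.

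Genes that work beside the 59, from lists compiled by function, did not share 1 direction. Their counts stand beside 20.6% higher and 11.8% lower over all genes tested. Among 15 other translocon and OST genes 5 fell and 1 rose, with a median log2 fold change of -0.45. Magt1, an alternative subunit of the Stt3b form of OST, had 123 ± 24.7 CPM in mutants and 253 ± 104 CPM in controls (log2 fold change -1.04, standard error 0.26, edgeR adjusted p = 0.0143). Its paralog Tusc3 had 32.7 ± 13.3 CPM in mutants and 61.7 ± 0.869 CPM in controls (log2 fold change -0.91, standard error 0.29, edgeR adjusted p = 0.0349). Without control 1, 2 of these genes were lower.

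Of 28 genes that assemble the glycan that OST transfers, 9 were higher (32.1%) and 3 lower (10.7%, near the share over all genes), with a median of 0.33. With RLE scaling 6 were higher and 4 lower, beside 17.4% higher and 16.2% lower over all genes, and with DESeq2 7 and 4. Pmm1, a phosphomannomutase, had 125, 152, 149, 199 and 139 CPM in mutants 1 to 5, against 35.7, 37.6, 51.6 and 25 CPM in controls 1 to 4 (log2 fold change 2.03, standard error 0.23, edgeR adjusted p = 0.00147). Mpdu1, needed for use of the dolichol-linked sugar donor, had 59.9 ± 6.43 CPM in mutants and 27.6 ± 5.18 CPM in controls (log2 fold change 1.11, standard error 0.16, edgeR adjusted p = 0.00242). Alg2, a mannosyltransferase, fell (log2 fold change -1.04, standard error 0.26, edgeR adjusted p = 0.016). With control 1 left out, 3 genes of this list were higher and 1 lower. The ER membrane protein complex, which inserts other membrane proteins, had 4 of 9 genes higher and 0 lower by edgeR, also 0 at an unadjusted p under 0.05 and by DESeq2 and limma-voom. Among them, Tmem111 (now Emc3) had 128 ± 7.91 CPM in mutants and 75.2 ± 13 CPM in controls (log2 fold change 0.77, standard error 0.14, edgeR adjusted p = 0.00493) and Tmem93 (now Emc6) 84.2 ± 11.4 CPM in mutants and 46.3 ± 8.71 CPM in controls (log2 fold change 0.86, standard error 0.17, edgeR adjusted p = 0.00592). Of 7 genes for tail-anchor insertion 1 rose, Ubl4 (now Ubl4a), with 93.9 ± 14.3 CPM in mutants and 52.3 ± 4.44 CPM in controls (log2 fold change 0.84, standard error 0.15, edgeR adjusted p = 0.00418). DESeq2 called 2 of the 9 ER membrane protein complex genes higher, and so did the fit without control 1. Of the 9 log2 fold changes 4 were negative, the lowest at -0.58. Without mutant 4 edgeR called 3 of the 9 higher and 1 lower.

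Of 14 genes that trim and read N-glycans 4 fell and 1 rose. Pdia3, a disulfide isomerase that works with the lectin chaperones, had 918 ± 259 CPM in mutants and 1639 ± 61.6 CPM in controls (log2 fold change -0.84, standard error 0.22, edgeR adjusted p = 0.0179), and Uggt1, the sensor that marks misfolded glycoproteins, 94.9 ± 24.6 CPM in mutants and 167 ± 17.5 CPM in controls (log2 fold change -0.82, standard error 0.20, edgeR adjusted p = 0.0134). Edem2, which trims mannose from misfolded proteins, rose, with 398 ± 109 CPM in mutants and 205 ± 27.5 CPM in controls (log2 fold change 0.96, standard error 0.22, edgeR adjusted p = 0.0107). Among 37 COPII regulators, tethers and SNAREs 8 fell and 4 rose, and the lowest p was that of Sec22c at 3.66 ± 2.09 CPM in mutants and 14.7 ± 2.12 CPM in controls (log2 fold change -1.99, standard error 0.42, edgeR adjusted p = 0.0081). Among 23 COPI regulators and further Arf and p24 genes 3 fell and 3 rose, with Tmed4 at 189 ± 38.5 CPM in mutants and 302 ± 11.7 CPM in controls (log2 fold change -0.68, standard error 0.17, edgeR adjusted p = 0.0139) and Tmed6 at 70.5 ± 28.9 CPM in mutants and 31.1 ± 7.51 CPM in controls (log2 fold change 1.18, standard error 0.31, edgeR adjusted p = 0.0173). Without control 1 the counts for these lists were 2 lower and 1 higher, 2 lower and 1 higher, and 1 lower and 0 higher, in the order given.

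Of 14 genes for transcription factors and activators of secretory genes, 2 were higher and 2 lower (14.3% each way), which is near the shares over all genes tested. Xbp1, which is activated by splicing under ER load and raises many genes of this route in plasma cells of the mouse, had 2089, 5440.2, 4690.1, 2698 and 2572 CPM in mutants 1 to 5, against 1191, 988, 1422 and 1273 CPM in controls 1 to 4. All mutants were above all controls (log2 fold change 1.52, standard error 0.32, edgeR adjusted p = 0.00844), and mutant 2, the lowest mutant in 17 of the 18 fallen genes, had the highest Xbp1. Mutants 2 and 3, with the highest Xbp1, also had the highest shares of acinar counts (22.4 and 20.9%), while mutant 4 had the highest acinar score. The part of tissue makeup in the Xbp1 level was not tested. Creb3l2, a membrane-bound factor that acts on Sec23a in mouse cartilage, had 18, 6.20, 7.58, 9.22 and 9.90 CPM in mutants 1 to 5, against 27.5, 22.1, 22.4 and 42.8 CPM in controls 1 to 4 (log2 fold change -1.49, standard error 0.33, edgeR adjusted p = 0.00961). Nfyb, a subunit of the factor that binds CCAAT boxes, had 44 ± 7.02 CPM in mutants and 72.8 ± 12.5 CPM in controls (log2 fold change -0.73, standard error 0.17, edgeR adjusted p = 0.011). Atf6 had a log2 fold change of 0.04 (edgeR adjusted p = 0.856), and Bhlha15, a factor of acinar and other secretory cells, 0.14 (edgeR adjusted p = 0.808). Hspa5, the main ER chaperone and a target of Atf6, had a log2 fold change of -0.45 (edgeR adjusted p = 0.127). It was called lower by DESeq2 (adjusted p = 0.0168) and limma-voom (adjusted p = 0.0283). The counts give no measure of Xbp1 splicing.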

How the data were processed

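Polyadenylated RNA of islets was measured in 5 mutant and 4 control libraries, grouped by genotype label and title. The authors deposited raw counts, whole numbers for each gene symbol with no scaling applied. Among the tools of the project, the submitters' processing notes list STAR, RSEM, DESeq2 and R 4.1.0 without saying what each did. The aligner, annotation and strand setting of these counts are not given in the sources used here. Overlapping genes, antisense partners, pseudogenes and close paralogs may therefore share reads.

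Low-count genes were removed with filterByExpr, keeping 12402 of 23329 genes, and the counts were scaled by TMM. Mutants were then tested against controls, two-sided, with the quasi-likelihood test of edgeR 4.0.16 in R 4.3.3, with Benjamini-Hochberg adjustment over all genes tested and a threshold of 0.05. Standard errors are log2 fold changes over the square root of F. Levels in CPM use TMM-scaled library sizes, and log2 CPM for scores a prior count of 2. The fit was tested on simulated data. Ratios of paralog counts (pseudocount 0.5) were compared by an exact two-sided permutation test over libraries. The genes, lists and rules were chosen with earlier results of these data known. Named genes were up to 4 of lowest p in each role group, both genes of each paralog pair, up to 3 of lowest p in each other list, Xbp1, Atf6, Bhlha15, Hspa5 and Pdx1, and the text names part of these and a few more chosen after their values were seen (Srp9, Srp72, Srpr, Srprb, Sec62, Sec63, Rpn2, Sec13, Copz1, Arcn1, Arf1, Tmed2, Tmed10, Mcfd2, Srp54c, Tusc3, Alg2 and Copg among them). Promoter windows and positions are from RefSeq (GRCm38.p6), and the submitters' notes name mm10, the same build. No libraries of a group were copies of each other. A gene outside the 59 that the rule for named genes gives is not reported here.

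Alternatives were RLE scaling, scaling without hormone and acinar genes, no low-count filter, a minimum CPM of 1 in 4 libraries, a covariate (the acinar or the exocytosis score), a replicate block, fits leaving out 1 library in turn, mutants 2 and 3 left out, DESeq2 1.42.0 and limma-voom (limma 3.58.1).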

Additional observations from a re-analysis of the deposited data

Results flagged for a closer look

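In 8 of 118 groups of libraries, 59 genes in mutants and in controls, 1 library stood apart from the others of its group by Dixon's test on log2 CPM, and chance flags about 1 in 20 groups. Of these, 7 were among controls and 1 among mutants, and 6 were high values in control 2. Sec62 in control 2 was at 8.87 on the log2 CPM scale, where the other controls were at 7.47 to 7.65. Sec63 in control 2 was at 6.57, with the others at 5.39 to 5.56. Ssr1, the TRAP alpha subunit, was at 12.2 in control 2, with the others at 9.61 to 9.77. The signal peptidase subunit Spcs2 was at 10.98 in control 2, with the others at 9.36 to 9.64. The p24 protein Tmed9 was at 8.77 in control 2, with the others at 7.18 to 7.32, and the KDEL receptor Kdelr2 at 9.51, with the others at 7.52 to 7.70. Tmed2 in control 4 was low at 10.09, with the others at 10.24 to 10.26. Srp9 in mutant 5 was low at 7.40, with the other mutants at 7.53 to 7.58.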

How the results depend on the processing

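Among the 59 genes, 18 were called lower and 1 higher by edgeR. DESeq2 called 31 lower. The acinar score as a covariate left 0 lower and 0 higher with a median log2 fold change of -0.22, and the exocytosis score 0 and 0 with a median of -0.23. Leaving out mutants 2 and 3 gave 7 lower and 0 higher, and no low-count filter gave 0 higher. Leaving out 1 library gave 9 to 23 lower, the lowest without control 1, and 0 to 1 higher. The median stayed between -0.47 and -0.34 under every other setting run. Over all genes, 2560 higher and 1462 lower became 0 and 0 with the acinar score, and 451 and 54 with the exocytosis score. Without mutants 2 and 3 they became 1355 higher and 1229 lower, 10.8% and 9.78% of the genes tested. DESeq2 gave 2617 lower with 49.5% of its calls higher, and limma-voom 2294 lower. Leaving out 1 library gave 1579 to 2702 higher, the lowest without mutant 3, and 699 to 1865 lower, the lowest without control 1. The log2 ratio difference of Sec24a to Sec24b ran from -0.27 to 0.32 when 1 library was left out, the highest without control 2. No paralog ratio passed the adjusted threshold in any of 96 alternatives.

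The deviations of same-numbered libraries had correlations of 0.05, -0.02, 0.18 and -0.05. No correlations of differently numbered libraries stand beside these. They therefore cannot tell whether same-numbered libraries share more than a number. With the replicate block, a fit without mutant 5, 9 of the 59 genes were called lower, and 1645 higher and 772 lower over all genes.

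With the acinar score as a covariate 24 of the 59 genes turned sign, 11 of which had been called. Of the 24, 0 passed (edgeR, 0 at an unadjusted p under 0.05), and 0 of all 12402 genes tested passed with this covariate. Log2 fold changes of the 11 were 0.018 for Srp54a, -0.57 for Srp19, 0.0056 for Ssr3, 0.32 for Ddost, 0.089 for Rpn1, 0.39 for Rpn2, 1.32 for Sec24d, 0.14 for Sec31a, 0.55 for Sec23b, 1.18 for Sec16a and 0.042 for Lman1. Called genes outside the 59 that turned included values of -0.087 for Tmem93, -0.091 for Ubl4, -0.37 for Edem2, 0.25 for Uggt1, 0.37 for Pdia3, 0.15 for Sec22c, -0.38 for Cnih4, 0.11 for Arfgap3, -1.62 for Tmed6, -0.64 for Xbp1, 1.32 for Creb3l2, 0.70 for Pdx1 and 0.038 for Copg. Group explained 93.4% of the variance of this score. At 6092010 to 9163253 counts per library, changes smaller than the spread of these libraries could not be detected.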
